A study of Mus musculus with 9 samples.

Results

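The genes described here are the BCL2 family, the caspases and the apoptosome, the core machinery of the mitochondrial pathway of cell death, in newborn lenses of 3 mouse lines. All 34 named members of this group were found by symbol among the 47729 genes of the deposited RNA-Seq tables. The lines were wild-type *FVB/N* and hemizygous *P0-3.9GFPCre* and hemizygous *Le-Cre*, both transgenic lines being carried on the *FVB/N* strain. Either transgene places CRE recombinase together with GFP under *Pax6* P0 promoter sequences, which are active in the lens placode and later in the lens epithelium. The *FVB/N* mice carried no transgene, so an effect of CRE, of GFP, of the promoter copies and of the site of insertion cannot be told apart in these comparisons. Whole lenses were taken on the day of birth, and each line was represented by 3 pools of 6 lenses from 3 mice. The comparison addressed whether a lens that expresses CRE, a recombinase that can be toxic to cells, differs in its transcripts from a lens without it.

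In the mitochondrial pathway, BH3-only proteins sense damage or loss of survival signals and bind the anti-apoptotic BCL2 proteins, which otherwise hold the pore-forming effectors BAX and BAK1 in check. Once pores open, cytochrome c leaves the mitochondrion and assembles with APAF1 and caspase-9 into the apoptosome, which activates the executioner caspases. Inhibitor proteins bind the caspases, and proteins released from the same mitochondria remove the inhibitors. The lens is known for using parts of this machinery without dying, because differentiating fibre cells discard their nuclei and organelles but remain in place for life.

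Each pool gave between 20670968 and 28098059 expected counts, of which crystallin genes took 39.1% to 43.0%. The tissue label held, since 7 lens fibre markers summed to between 193000 and 242000 CPM, where CPM is the TMM-normalized count, scaled to a common library size. Markers of other tissues were low by comparison, with macrophage markers at 1.02 to 3.5 CPM, retina markers at 0.942 to 8.11 CPM and red blood cell markers at 41.7 to 120 CPM, and none of these lists separated the lines. Endothelium and pericyte markers summed to 71.3 to 126 CPM. Only 2 of the marker lists separated *Le-Cre* from *FVB/N*. The 4 lens epithelium markers summed to 346 to 372 CPM in the *Le-Cre* pools and to 382 to 398 CPM in the *FVB/N* pools, and 4 Y-linked genes, which follow the mix of sexes in a pool, summed to 0.633 to 71.9 CPM in *Le-Cre*, 1.66 to 135 in *P0-3.9GFPCre* and 126 to 194 CPM in *FVB/N*. In whole lenses, fewer cells of a type and less RNA per cell cannot be told apart.

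Transcript levels of the 34 genes are given first as TPM, the deposited values that correct for transcript length and so allow genes to be compared with each other. In *FVB/N* lenses 11 members exceeded 10 TPM, 14 lay between 1 and 10 TPM, and 9 lay under 1 TPM. Neighbours in this order mostly could not be ranked, because the 3 *FVB/N* pools of a gene lay wholly above those of the next gene in only 7 of 33 neighbouring pairs.

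**Figure D1:**
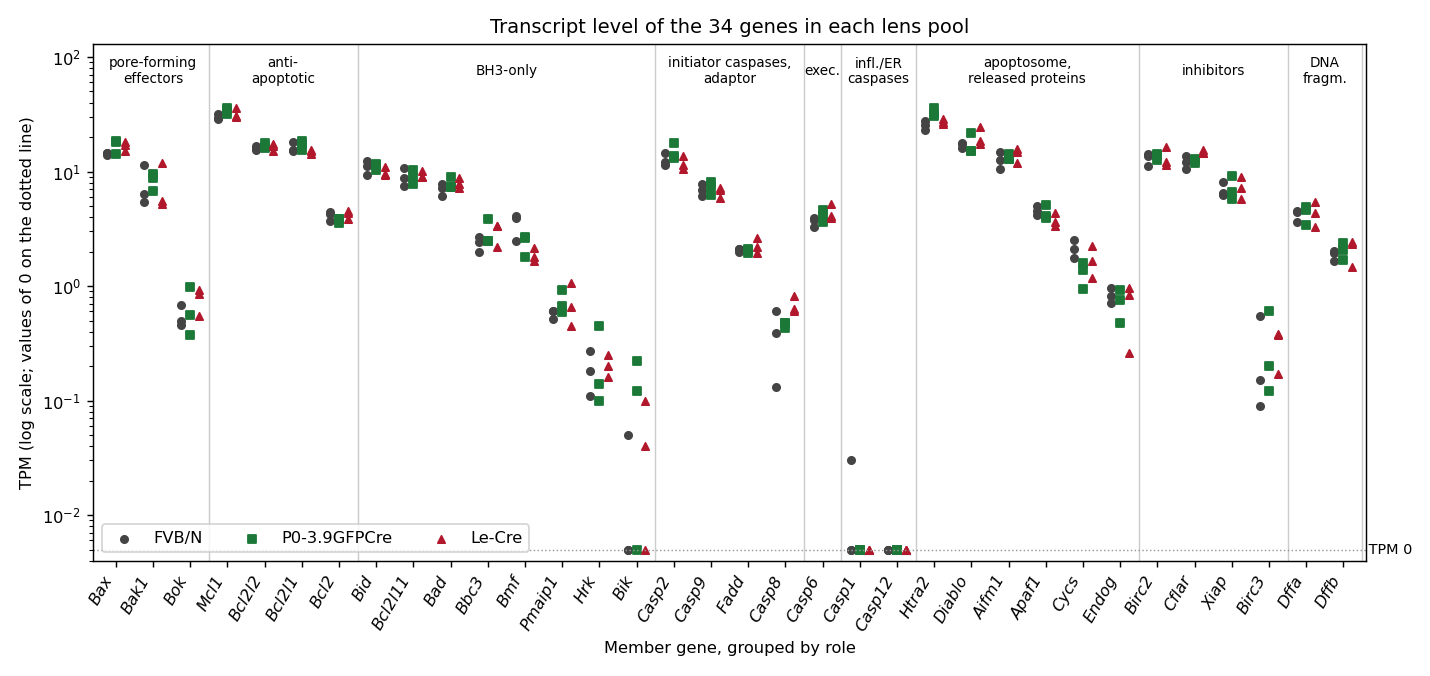
Transcript level in TPM (log scale) of each of the 34 member genes, grouped by role, with 1 point for each of the 9 pools and values of 0 drawn on the dotted line. *Mcl1* and *Htra2* have the highest listed levels, and *Casp12* sits at 0 in all pools.

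The 4 anti-apoptotic genes summed to 66.2 ± 3.47 TPM (SD, n = 3) in *FVB/N*, 71.7 ± 2.9 TPM in *P0-3.9GFPCre* and 67.7 ± 3.82 TPM in *Le-Cre*. The apoptosome genes and released proteins, 6 in number, reached 62.8 ± 4.05, 69.8 ± 6.79 and 67.5 ± 7.36 TPM in the same order, and the pools of both groups overlapped in each line. *Mcl1*, a short-lived survival protein, had the highest listed level of all members, at 29.8 ± 1.75 TPM in *FVB/N*, 34.1 ± 2.25 TPM in *P0-3.9GFPCre* and 32.1 ± 3.16 TPM in *Le-Cre*. *Bcl2l1*, which encodes BCL-XL, stood at 16.2 ± 1.61, 17.2 ± 1.56 and 14.9 ± 0.499 TPM in the same order of lines. *Bcl2l2*, which encodes BCL-W, stood at 16 ± 0.583, 16.7 ± 0.891 and 16.5 ± 1.16 TPM. The founding member of the family, *Bcl2*, was the least abundant of the 4, with 4.16 ± 0.399, 3.74 ± 0.191 and 4.23 ± 0.359 TPM. Newborn lens therefore held its survival transcripts mainly as *Mcl1*, *Bcl2l1* and *Bcl2l2*.

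Of the pore-forming effectors, *Bax* was the most abundant, with 14.3 ± 0.348 TPM in *FVB/N*, 17.0 ± 2.3 TPM in *P0-3.9GFPCre* and 16.8 ± 1.64 TPM in *Le-Cre*. *Bak1*, its close relative, stood at 7.73 ± 3.3, 8.38 ± 1.43 and 7.52 ± 3.73 TPM, and its wide spread within lines went with an estimated transcript length that varied 1.86-fold among pools. *Bok*, an effector that is less dependent on BH3-only proteins, was near the limit of measurement at 0.547 ± 0.117, 0.637 ± 0.312 and 0.777 ± 0.199 TPM.

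The 8 BH3-only genes summed to 33.7 ± 1.65 TPM in *FVB/N*, 34.4 ± 3.32 TPM in *P0-3.9GFPCre* and 33.0 ± 0.63 TPM in *Le-Cre*. Most of this came from *Bid*, the link from death receptors to mitochondria, at 11 ± 1.51, 11.2 ± 0.821 and 9.97 ± 0.918 TPM, from *Bcl2l11*, which encodes BIM, at 8.98 ± 1.63, 9.03 ± 1.27 and 9.33 ± 0.597 TPM, and from *Bad*, which is controlled by growth factor signalling, at 7.06 ± 0.817, 7.86 ± 0.883 and 7.89 ± 0.801 TPM. *Bmf*, which responds to detachment and to changes of the cytoskeleton, stood at 3.5 ± 0.875 TPM in *FVB/N*, 2.38 ± 0.494 TPM in *P0-3.9GFPCre* and 1.86 ± 0.246 TPM in *Le-Cre*. *Bbc3* and *Pmaip1*, which encode the p53 targets PUMA and NOXA, stood at 2.37 ± 0.347, 2.93 ± 0.794 and 2.96 ± 0.673 TPM and at 0.577 ± 0.0493, 0.73 ± 0.178 and 0.72 ± 0.311 TPM. *Hrk*, known mainly from neurons, stood at 0.187 ± 0.0802, 0.23 ± 0.192 and 0.203 ± 0.0451 TPM. *Bik* gave 10 counts over all 9 pools and was not tested.

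Among the initiator caspases, *Casp2* and *Casp9* carried most of the signal. *Casp2* stood at 12.6 ± 1.61, 14.9 ± 2.59 and 11.9 ± 1.69 TPM in *FVB/N*, *P0-3.9GFPCre* and *Le-Cre*, and *Casp9*, the caspase of the apoptosome, at 6.91 ± 0.835, 7.26 ± 0.966 and 6.6 ± 0.688 TPM. *Casp8*, the caspase of death receptors, stood at 0.377 ± 0.24, 0.463 ± 0.0289 and 0.687 ± 0.116 TPM, whereas its adaptor *Fadd* stood at 2.06 ± 0.0808, 2.05 ± 0.0889 and 2.26 ± 0.342 TPM. *Casp6*, an executioner that cleaves nuclear lamins, stood at 3.65 ± 0.303, 4.13 ± 0.467 and 4.4 ± 0.714 TPM. The inflammatory *Casp1* gave 1 count in a single *FVB/N* pool, and *Casp12*, the caspase of the endoplasmic reticulum, gave 0 of 217416269 counts, which allows up to 0.0138 CPM by counting error alone.

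*Htra2*, a mitochondrial protease that cleaves inhibitor proteins once released, had the highest listed level of the apoptosome genes and released proteins, at 25.4 ± 2.31 TPM in *FVB/N*, 32.8 ± 2.57 TPM in *P0-3.9GFPCre* and 27.2 ± 1.25 TPM in *Le-Cre*. *Diablo*, which acts on the same inhibitors, stood at 17.2 ± 0.866, 17.3 ± 3.83 and 20 ± 3.86 TPM, and *Aifm1*, a flavoprotein of the respiratory chain that moves to the nucleus in dying cells, at 12.6 ± 2.17, 13.3 ± 0.807 and 14.1 ± 2.03 TPM. *Apaf1*, the scaffold of the apoptosome, stood at 4.58 ± 0.4, 4.38 ± 0.669 and 3.79 ± 0.521 TPM. The mitochondrial nuclease *Endog* stood at 0.83 ± 0.125, 0.723 ± 0.227 and 0.69 ± 0.378 TPM. *Cycs*, which encodes cytochrome c, was listed at 2.14 ± 0.395, 1.31 ± 0.323 and 1.69 ± 0.536 TPM, a value that depends on how reads were shared among copies of the gene.

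Those copies are shown because they decide what the *Cycs* value means. Below is the start of the *Cycs* coding sequence (GRCm38, chr6:50565511-50565660, minus strand, exonic, coding bases 1 to 150) with the same 150 bases of 2 processed pseudogenes, *Gm10108* (chr5:13121617-13121766, minus strand) and *Gm13772* (chr2:90804427-90804576, minus strand), all read from GENCODE M21 transcripts. Capitals mark bases that differ from *Cycs*.
Cycs: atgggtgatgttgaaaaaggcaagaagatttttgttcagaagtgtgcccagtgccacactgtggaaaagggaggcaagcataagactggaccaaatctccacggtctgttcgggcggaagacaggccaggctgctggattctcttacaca
Gm10108: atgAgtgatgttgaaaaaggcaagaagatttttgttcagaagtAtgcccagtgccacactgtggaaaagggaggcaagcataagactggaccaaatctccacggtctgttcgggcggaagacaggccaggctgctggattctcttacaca
Gm13772: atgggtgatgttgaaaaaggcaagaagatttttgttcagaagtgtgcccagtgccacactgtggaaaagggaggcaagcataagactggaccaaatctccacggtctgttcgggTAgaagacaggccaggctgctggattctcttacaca
Each copy differs at only 2 of the 150 bases. *Gm10053* (chr19:24875753-24875902, plus strand), which GENCODE M21 lists as protein coding, differs at 0 of them. Of the 265 stretches of 51 bases in the *Cycs* coding sequence, all 265 occur in *Gm10053*, 221 in *Gm10108* and 213 in *Gm13772*, so a single-end read from the coding part can rarely be assigned to 1 gene. Over all *Cycs* transcripts, 25.8% of the 51-base stretches were shared with other genes on the same strand. In *FVB/N* the copies were listed at 50.5 ± 14.4 TPM (*Gm10108*), 36.7 ± 16.1 TPM (*Gm13772*) and 8.43 ± 2.15 TPM (*Gm10053*). How many of their reads came from *Cycs* was not tested. The place of *Cycs* among the members and the TPM sum of its group are therefore not settled.

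The inhibitors were led by *Birc2* and *Cflar*. *Birc2*, which encodes cIAP1, stood at 13.0 ± 1.63, 13.7 ± 0.818 and 13.4 ± 2.7 TPM in *FVB/N*, *P0-3.9GFPCre* and *Le-Cre*, and *Cflar*, a catalytically dead relative of caspase-8, at 12.2 ± 1.65, 12.4 ± 0.543 and 14.8 ± 0.44 TPM. *Xiap*, the X-linked direct inhibitor of caspases, stood at 6.99 ± 0.981, 7.2 ± 1.78 and 7.33 ± 1.59 TPM, and *Birc3* at 0.263 ± 0.25, 0.31 ± 0.263 and 0.307 ± 0.118 TPM. *Dffb*, the nuclease that cuts DNA between nucleosomes, stood at 1.88 ± 0.189, 2.04 ± 0.341 and 2.07 ± 0.511 TPM, below its own inhibitor *Dffa* at 4.18 ± 0.486, 4.32 ± 0.815 and 4.33 ± 1.06 TPM.

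Differences between lines were tested on the counts with edgeR's quasi-likelihood test over all 15557 genes that passed the filter on low counts, and a gene was called at a fold of at least 1.5 with a Benjamini-Hochberg adjusted p of at most 0.05. The filter left 31 of the 34 members. In *Le-Cre* against *FVB/N*, 0 of 31 members were called, beside 0.0643% of all genes tested (10 genes). The smallest adjusted p of a member was 0.331 by edgeR, and 2 members had an unadjusted p under 0.05, beside 7.94% of all genes. In *P0-3.9GFPCre* against *FVB/N*, 0 of 31 were called, beside 0.0% of all genes, and 3 had an unadjusted p under 0.05, beside 6.81% of all genes. In *Le-Cre* against *P0-3.9GFPCre*, 0 of 31 were called, beside 0.0% of all genes, and 3 had an unadjusted p under 0.05, beside 7.88% of all genes. DESeq2, with or without a prior on the fold changes, and limma on log2 TPM also called 0 members in the 3 comparisons. These fits called few genes of the whole table. In the same order of comparisons, DESeq2 called 8, 1 and 4 of 27804 genes with the prior and 49, 11 and 32 without it. Limma called 1, 0 and 1 of 15557 genes. Without the filter on low counts edgeR called 1 member, *Bmf*, in *Le-Cre* against *FVB/N*, beside 0.471% of all genes (131 of 27804).

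Positive and negative differences were about equally frequent among the members. Their median log2 fold change was 0.02 in *Le-Cre* against *FVB/N*, with 17 members higher and 14 lower, 0.00 in *P0-3.9GFPCre* against *FVB/N*, with 16 higher and 15 lower, and 0.02 between the transgenic lines, with 18 higher and 13 lower. The median over all genes tested was 0.00 in each of the comparisons. In CPM, every pool of *Le-Cre* lay above every pool of *FVB/N* for 1 member (6.46% of all genes) and below for 2 members (7.03% of all genes). In *P0-3.9GFPCre* against *FVB/N* these counts were 1 member above (6.02% of all genes) and 1 below (5.94% of all genes). *Le-Cre* lay wholly above *P0-3.9GFPCre* for 4 members (6.74% of all genes) and wholly below for 2 (7.37% of all genes). The 2 comparisons against *FVB/N* share its 3 pools. Permuting 3 pools against 3 exactly would allow no two-sided p under 0.1 for any 1 gene. Each pool came from its own mice, and whether mice of a line were littermates is not stated, so the p-values measure the spread between pools.

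For most members the counts also bounded how large a difference in whole-lens reads could be. The 95% interval of the fold lay within 1.5 in both directions for 22 of 31 members (71.0%) in each of the 3 comparisons, beside 58.5% of all genes in *Le-Cre* against *FVB/N*, 58.9% in *P0-3.9GFPCre* against *FVB/N* and 58.5% between the transgenic lines. The same 22 genes did so each time. They include all 4 anti-apoptotic genes, *Bax*, *Bak1*, *Casp2*, *Casp6*, *Casp9*, *Apaf1*, *Diablo*, *Htra2*, *Xiap*, *Birc2* and *Cflar*. These bounds hold for the count fit and not for TPM, which also carries the estimate of transcript length. On log2 TPM, *Bak1* differed by -0.06 ± 0.35 (SE) in *Le-Cre* against *FVB/N*, too wide for such a bound. The other 9 were *Bmf* and 8 genes with mean levels of only 0.602 to 4.1 CPM, namely *Bok*, *Bbc3*, *Pmaip1*, *Hrk*, *Casp8*, *Cycs*, *Endog* and *Birc3*. For those 9 genes a 1.5-fold difference was not excluded by the interval at this depth. In embryonic lenses of both transgenic lines, the paper saw CRE protein in the epithelium but not in fibre cells. In dissected newborn lenses of both lines it measured higher CRE transcript levels in the epithelial than in the fibre fraction. A difference confined to the epithelium could exceed the bounds for any member, and the cell types were not measured apart.

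**Figure D2:**
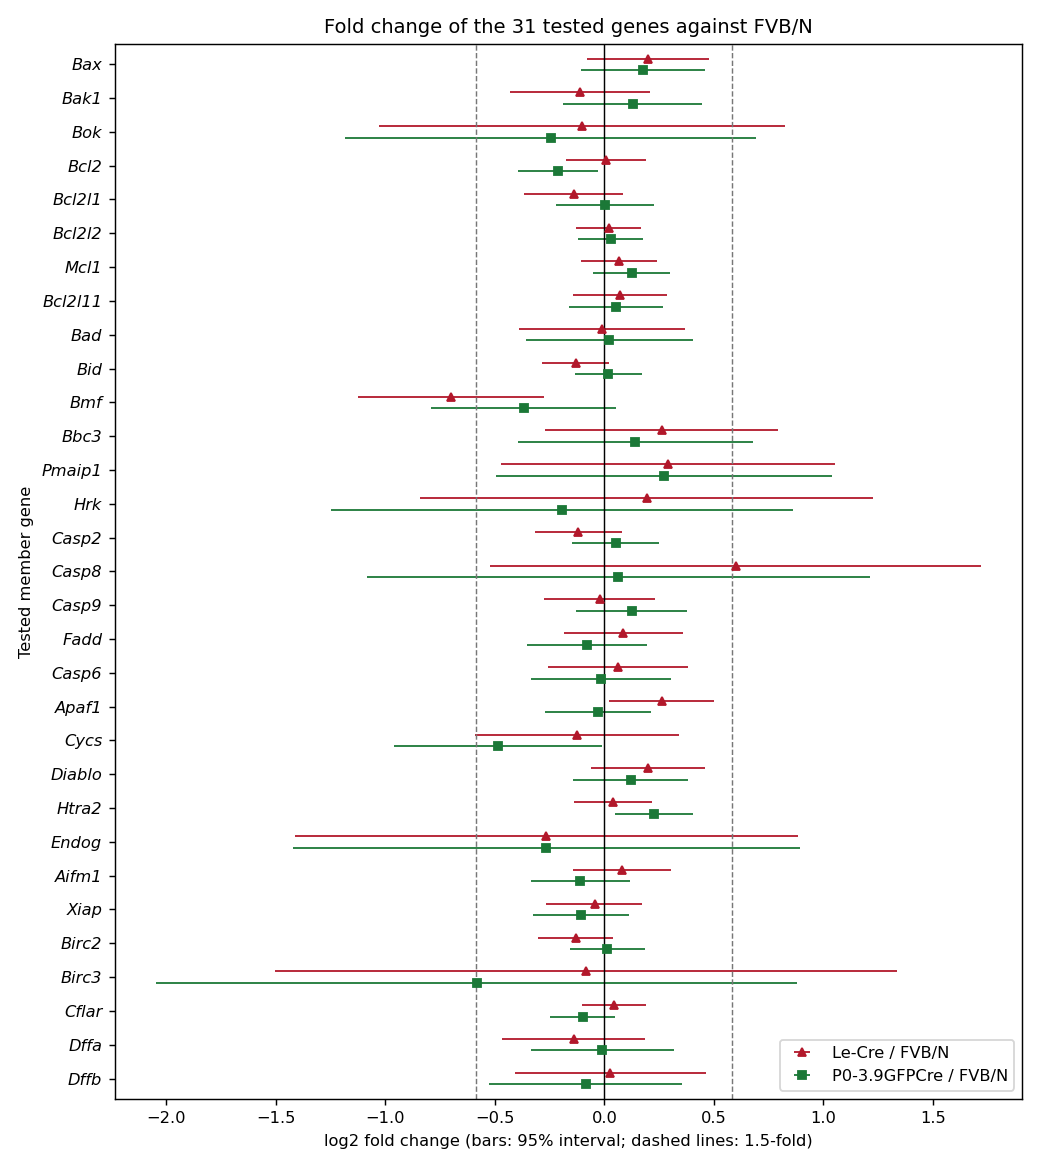
Log2 fold change of the 31 tested members in *Le-Cre* (triangles) and *P0-3.9GFPCre* (squares) against *FVB/N*, with 95% intervals from edgeR and dashed lines at 1.5-fold. *Bmf* in *Le-Cre* is the point farthest left, and the widest intervals belong to *Birc3*, *Casp8*, *Endog* and *Hrk*.

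Of the BCL2 family, *Bmf* had the smallest p in *Le-Cre* against *FVB/N*. The *FVB/N* pools gave 9.8, 13.5 and 10.6 CPM, the *P0-3.9GFPCre* pools 9.54, 10.4 and 6.24 CPM, and the *Le-Cre* pools 6.87, 7.84 and 6.06 CPM. Every *Le-Cre* pool was thus below every *FVB/N* pool, and 1 *P0-3.9GFPCre* pool fell among the *Le-Cre* pools. In *Le-Cre* against *FVB/N* the log2 fold change of *Bmf* was -0.70 ± 0.19 (SE), with a 95% interval from -1.13 to -0.28 and an adjusted p of 0.331 by edgeR. In *P0-3.9GFPCre* against *FVB/N* it was -0.37 ± 0.19 (adjusted p = 0.763 by edgeR). *Le-Cre* and *P0-3.9GFPCre* pools overlapped for *Bmf*. Of its 51-base stretches, 0.0% occur in another GENCODE M21 gene.

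**Figure D3:**
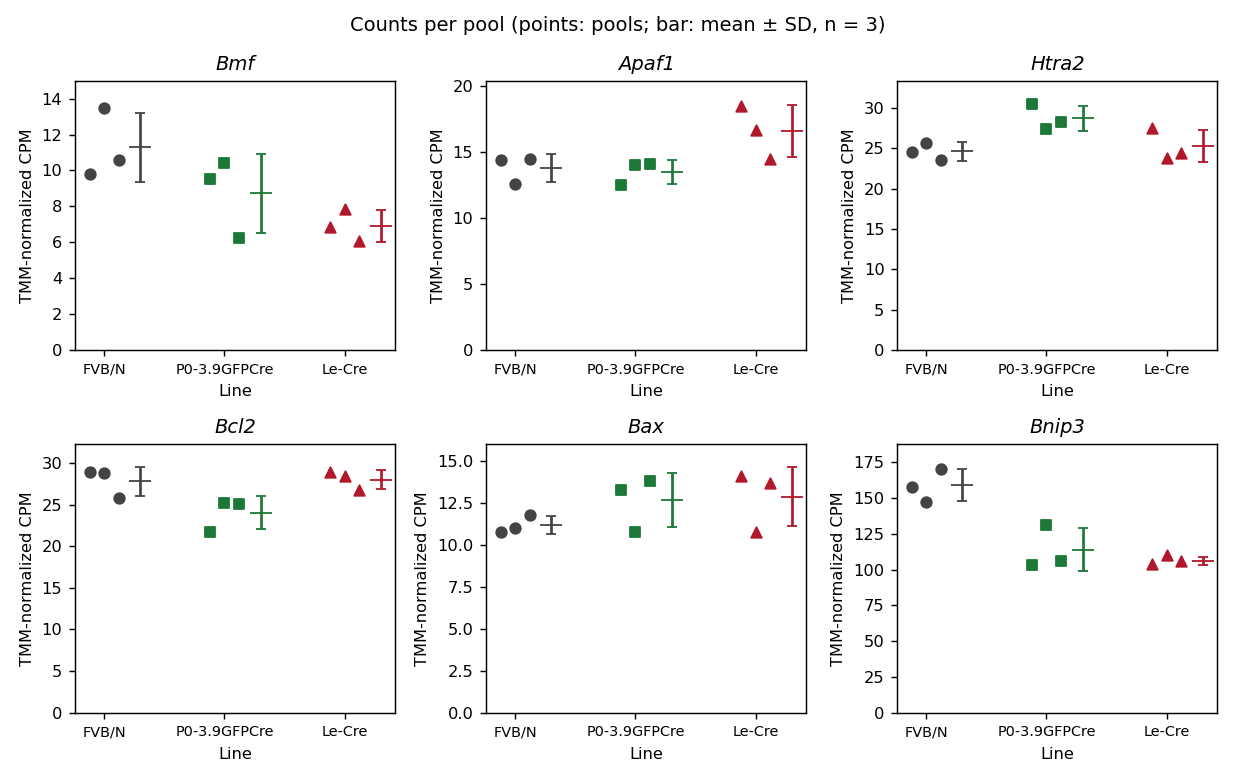
TMM-normalized CPM in each of the 9 pools for *Bmf*, *Apaf1*, *Htra2*, *Bcl2*, *Bax* and *Bnip3*, with the mean ± SD of each line (n = 3) drawn beside its points. *Le-Cre* pools lie below all *FVB/N* pools for *Bmf* and *Bnip3* and above them for *Apaf1*.

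*Bid* was the other member whose CPM lay lower throughout *Le-Cre*, although its TPM overlapped between the lines. It gave 20.1, 18.9 and 19.5 CPM in *FVB/N*, 20, 19.6 and 19.6 in *P0-3.9GFPCre* and 17.6, 17.5 and 18.3 CPM in *Le-Cre*. The difference was small, at -0.13 ± 0.07 log2 against *FVB/N* (adjusted p = 0.713 by edgeR) and -0.15 ± 0.07 log2 against *P0-3.9GFPCre* (adjusted p = 0.656 by edgeR). *Bid* overlaps *Bcl2l13* on the opposite strand over 16.4% of its 51-base stretches, and *Bcl2l13* averaged 227 CPM. Whether the counting used strand is not given in the sources used here.

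*Bcl2* had its lowest counts in *P0-3.9GFPCre*. Its levels were 28.9, 28.8 and 25.8 CPM in *FVB/N*, 21.7, 25.2 and 25.1 in *P0-3.9GFPCre* and 28.9, 28.4 and 26.7 CPM in *Le-Cre*, so that the *P0-3.9GFPCre* pools lay below both other lines without overlap. The log2 fold change was -0.21 ± 0.08 against *FVB/N* (adjusted p = 0.662 by edgeR), and *Le-Cre* exceeded *P0-3.9GFPCre* by 0.22 ± 0.08 (adjusted p = 0.531 by edgeR). In TPM the *Bcl2* pools of *P0-3.9GFPCre* (3.52, 3.86 and 3.84) overlapped those of both other lines, at -0.13 ± 0.10 log2 against *FVB/N* (adjusted p = 0.807 by limma). The remaining survival genes showed less. *Mcl1* gave 102, 89.2 and 97.3 CPM in *FVB/N* and 94.4, 107 and 112 CPM in *P0-3.9GFPCre*, a log2 fold change of 0.12 ± 0.08 (adjusted p = 0.81 by edgeR). *Bcl2l1* gave 25.9, 26.4 and 25.6 CPM in *FVB/N* and 23.5, 21 and 26.1 CPM in *Le-Cre*, giving a log2 difference of -0.14 ± 0.10 (adjusted p = 0.801 by edgeR). In both genes the pools overlapped.

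*Bax*, the effector itself, varied within the transgenic lines. It gave 10.8, 11 and 11.8 CPM in *FVB/N*, 13.3, 10.8 and 13.8 in *P0-3.9GFPCre* and 14.1, 10.8 and 13.7 CPM in *Le-Cre*. The log2 fold change against *FVB/N* was 0.20 ± 0.13 in *Le-Cre* (adjusted p = 0.768 by edgeR) and 0.18 ± 0.13 in *P0-3.9GFPCre* (adjusted p = 0.834 by edgeR). In each transgenic line replicate 2 sat at the *FVB/N* level in CPM. In TPM all *Le-Cre* pools (18.25, 15.03 and 17.17) lay above all *FVB/N* pools (13.93, 14.4 and 14.61), at 0.22 ± 0.12 log2 (adjusted p = 0.844 by limma). The *P0-3.9GFPCre* pools (18.38, 14.33 and 18.23 TPM) overlapped *FVB/N*. Replicate 2 was also the pool with the highest Y-linked level in every line, 71.9 CPM in *Le-Cre*, 135 CPM in *P0-3.9GFPCre* and 194 CPM in *FVB/N*. Ordered by the Y-linked genes, the 4 pools from 0.633 to 53.9 CPM had 13.3 to 14.1 CPM of *Bax*, and the 5 pools from 71.9 to 194 CPM had 10.8 to 11.8 CPM. The same order ran the other way for *Bmf*, which was lowest (6.06 to 6.87 CPM) in the 3 pools with the least Y-linked signal and highest (13.5 CPM) in the pool with the most. With the Y-linked level as a covariate in the edgeR fit, the log2 fold change of *Bax* in *Le-Cre* against *FVB/N* became -0.06 (adjusted p = 0.992) and in *P0-3.9GFPCre* 0.04 (adjusted p = 0.971), and that of *Bmf* became -0.28 (adjusted p = 0.965) and -0.17 (adjusted p = 0.882). This order of pools was noticed after the values were seen. All *FVB/N* pools lie at the upper end of the Y-linked range, so the mix of sexes and the line are partly confounded, and within these data they cannot be told apart for *Bmf*. The lens epithelium markers, also lower in *Le-Cre*, moved in the same direction as *Bmf*, and their part in the result was not tested.

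**Figure D4:**
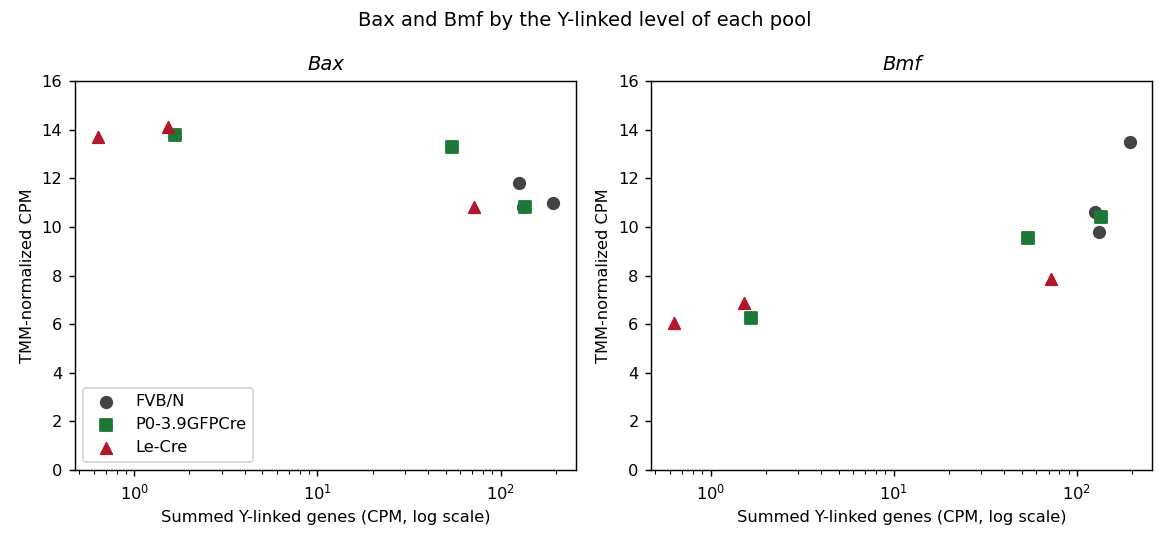
CPM of *Bax* (left) and *Bmf* (right) in each of the 9 pools against the summed CPM of 4 Y-linked genes on a log axis. *Bax* lies at 13.3 to 14.1 CPM in the 4 pools with the lowest Y-linked level, and *Bmf* lies lowest in the 3 pools at the left.

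Of the apoptosome genes, *Apaf1* had more reads in *Le-Cre*. Its counts were 14.4, 12.6 and 14.5 CPM in *FVB/N*, 12.5, 14.0 and 14.1 in *P0-3.9GFPCre* and 18.5, 16.7 and 14.5 CPM in *Le-Cre*. All *Le-Cre* pools were above all others, although *Le-Cre* replicate 3 exceeded the highest *FVB/N* pool by less than the rounding of these values. The log2 fold change was 0.26 ± 0.11 against *FVB/N* (adjusted p = 0.591 by edgeR) and 0.29 ± 0.11 against *P0-3.9GFPCre* (adjusted p = 0.531 by edgeR).

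The TPM of *Apaf1* went the other way, at 4.56, 4.99 and 4.19 in *FVB/N*, 5.15, 4.05 and 3.94 in *P0-3.9GFPCre* and 3.64, 4.37 and 3.36 in *Le-Cre*, a log2 TPM difference of -0.25 ± 0.14 against *FVB/N* (adjusted p = 0.843 by limma). TPM divides the reads by the effective length of the gene, which is also deposited. RSEM, the quantifier, takes it as the average length of a gene's transcripts weighted by their estimated abundance. For *Apaf1* it was 3339, 2718 and 3492 bases in *FVB/N*, 2739, 3760 and 3874 bases in *P0-3.9GFPCre* and 5407, 4325 and 4439 bases in *Le-Cre*. The *Le-Cre* pools were thus assigned to longer transcripts than any other pool. GENCODE M21 lists 8 *Apaf1* transcripts (chr10:90989311-91082770, minus strand), of which the protein-coding ones measure 6577, 6433, 5151, 2710 and 1596 bases. The assignment of 51-base single-end reads to transcripts of 1 gene is itself an estimate, and its part in the length difference was not tested.

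Of the 31 tested members, 26 had an effective length that varied among pools by more than 1%. *Apaf1* was the only one of these 26 that was longer in every *Le-Cre* than in every *FVB/N* pool, beside 4.85% of the 10008 such genes, and *Bok*, *Bad* and *Cflar* were shorter, beside 4.03%. Against *P0-3.9GFPCre*, *Apaf1* was again the only longer one (6.15% of genes) and *Cflar* the only shorter one (4.43% of genes). In *P0-3.9GFPCre* against *FVB/N* 0 members were longer (4.6% of genes) and 1 was shorter (5.53% of genes), *Htra2*, at 964, 936 and 992 bases against 1014, 999 and 1028 bases. Its log2 TPM difference there was 0.36 ± 0.11 (adjusted p = 0.627 by limma). *Cflar* has short and long protein forms, and its effective length was 3353, 2799 and 2806 bases in *FVB/N*, 2927, 2758 and 2821 bases in *P0-3.9GFPCre* and 2524, 2678 and 2510 bases in *Le-Cre*. Its counts overlapped between *Le-Cre* (36.3, 34.5 and 35.4 CPM) and *FVB/N* (33.4, 35.9 and 33.8 CPM), whereas its TPM did not, at 15.29, 14.62 and 14.46 in *Le-Cre* and 10.49, 13.79 and 12.18 in *FVB/N*. In log2 TPM the difference was 0.28 ± 0.11 (adjusted p = 0.767 by limma). Against *P0-3.9GFPCre*, at 30.6, 32.0 and 33.6 CPM, *Cflar* had more reads in every *Le-Cre* pool, a log2 fold change of 0.14 ± 0.07 (adjusted p = 0.654 by edgeR). Against *FVB/N*, the *Cflar* reads of *P0-3.9GFPCre* differed by -0.10 ± 0.07 log2 (adjusted p = 0.825 by edgeR).

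**Figure D5:**
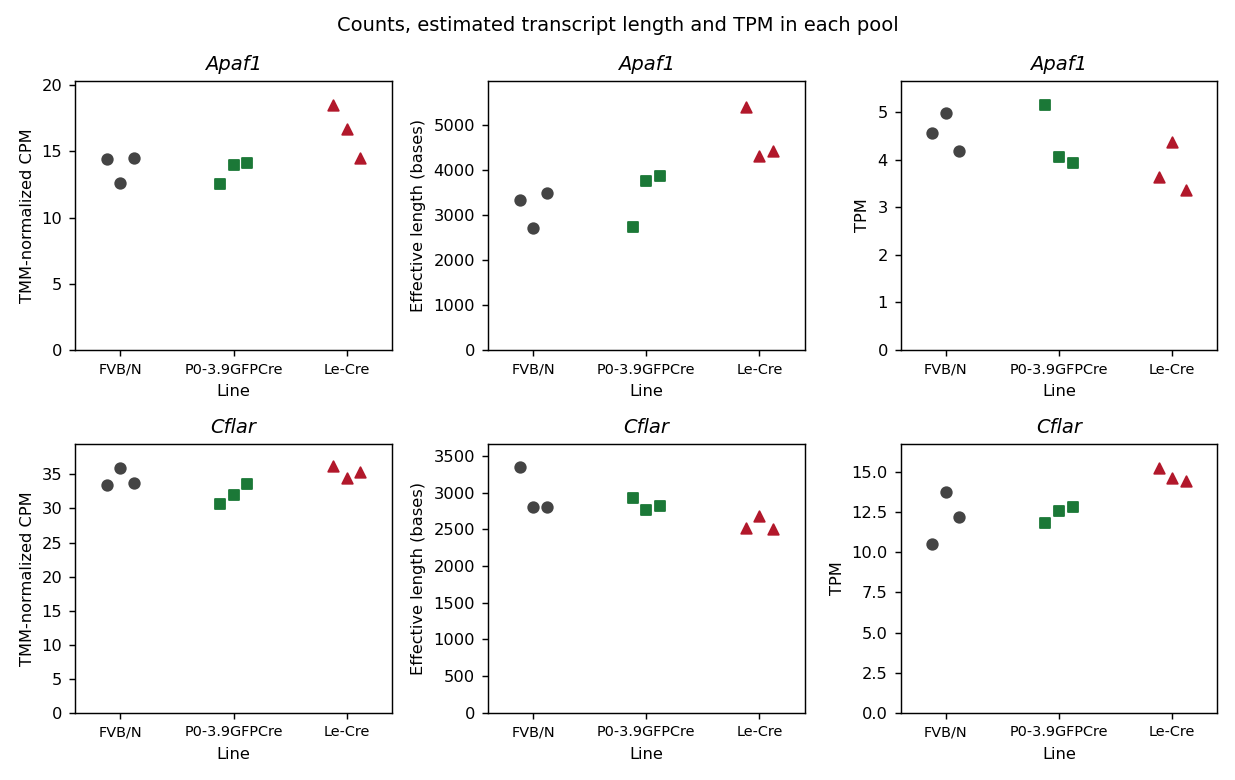
CPM (left), RSEM effective length in bases (middle) and TPM (right) of *Apaf1* (top) and *Cflar* (bottom) in each of the 9 pools, on axes that start at 0. The *Le-Cre* pools have the longest *Apaf1* and the shortest *Cflar* lengths, and for *Apaf1* they are highest in CPM but have the lowest mean TPM.

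Among the proteins released from mitochondria, *Htra2* had its highest counts in *P0-3.9GFPCre*. It gave 24.5, 25.7 and 23.5 CPM in *FVB/N*, 30.5, 27.4 and 28.3 in *P0-3.9GFPCre* and 27.5, 23.8 and 24.4 CPM in *Le-Cre*. All 3 *P0-3.9GFPCre* pools lay above all *FVB/N* pools, with a log2 fold change of 0.23 ± 0.08 (adjusted p = 0.651 by edgeR), and *Le-Cre* differed from *P0-3.9GFPCre* by -0.19 ± 0.08 log2 (adjusted p = 0.613 by edgeR) with 1 pool overlapping. *Htra2* (chr6:83051266-83055273, minus strand) overlaps *Aup1* over 21.4% and *Loxl3* over 12.1% of its 51-base stretches, both on the opposite strand. *Aup1* itself averaged 29.1 CPM in *FVB/N* and 30.2 CPM in *P0-3.9GFPCre*, a log2 fold change of 0.05 ± 0.08. *Loxl3* averaged 4.38 and 5.02 CPM, at 0.20 ± 0.20 log2, and it differed by -0.29 ± 0.21 log2 between *Le-Cre* and *P0-3.9GFPCre*, with overlapping pools. The part of either neighbour in the *Htra2* counts was not tested.

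*Cycs* was listed at 4.43, 3.7 and 5.32 CPM in *FVB/N*, 3.78, 2.66 and 3.14 in *P0-3.9GFPCre* and 3.38, 4.02 and 4.98 CPM in *Le-Cre*. In *P0-3.9GFPCre* against *FVB/N* this gave a log2 fold change of -0.48 ± 0.22 (adjusted p = 0.722 by edgeR). *Cycs* together with *Gm10053*, *Gm10108* and *Gm13772* had summed CPM values of 34.1 ± 3.11 in *FVB/N*, 36.7 ± 3.63 in *P0-3.9GFPCre* and 37.5 ± 1.15 in *Le-Cre* (SD, n = 3), and *Cycs* took 12.1% to 14.5%, 8.17% to 9.55% and 9.31% to 13.2% of that sum. For the sum, the log2 fold change in *P0-3.9GFPCre* was 0.10 ± 0.09 (adjusted p = 0.859 by edgeR). The direction thus reversed once the 4 near-identical sequences were counted as 1.

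*Diablo* gave 15.8, 14.8 and 18.9 CPM in *FVB/N* and 19.2, 21.1 and 16.4 CPM in *Le-Cre*, which overlap, at 0.20 ± 0.12 log2 (adjusted p = 0.742 by edgeR). *Aifm1* gave 20.9, 20.1 and 17.2 CPM in *Le-Cre* and 16.7, 16.5 and 17.8 CPM in *P0-3.9GFPCre*, which also overlap, at 0.19 ± 0.10 log2 (adjusted p = 0.70 by edgeR).

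No caspase or inhibitor was called in these comparisons by edgeR. *Casp2* gave 16.5, 19.1 and 17.5 CPM in *FVB/N*, 16.9, 19.6 and 18.5 in *P0-3.9GFPCre* and 16.2, 17.1 and 15.6 CPM in *Le-Cre*. The pools overlapped, with a log2 fold change in *Le-Cre* of -0.12 ± 0.09 against *FVB/N* (adjusted p = 0.814 by edgeR) and of -0.17 ± 0.09 against *P0-3.9GFPCre* (adjusted p = 0.698 by edgeR). *Casp9* gave 20.8, 18.9 and 21 CPM in *FVB/N* and 22.7, 22.7 and 20.8 CPM in *P0-3.9GFPCre*, at 0.12 ± 0.11 log2 (adjusted p = 0.869 by edgeR). The inhibitor *Birc2* gave 32.7, 29.9 and 31.9 CPM in *FVB/N*, 32.3, 31 and 32.1 in *P0-3.9GFPCre* and 26.0, 30.0 and 30.4 CPM in *Le-Cre*. *Le-Cre* differed by -0.13 ± 0.08 log2 against *FVB/N* (adjusted p = 0.743 by edgeR), with overlapping pools. Against *P0-3.9GFPCre* it differed by -0.14 ± 0.08 log2 (adjusted p = 0.702 by edgeR), without overlap in CPM but with overlap in TPM. *Casp8* was low throughout, and its *Le-Cre* pools (1.21, 0.936 and 1.09 CPM) lay above all *P0-3.9GFPCre* pools (0.74, 0.63 and 0.853 CPM) but not above all *FVB/N* pools (1.06, 0.86 and 0.205 CPM). Its fold in *Le-Cre* against *FVB/N*, the highest of any member there, was 1.52 with a 95% interval from 0.696 to 3.3 (adjusted p = 0.832 by edgeR). *Birc3*, also near the limit of measurement, had a fold of 0.667 in *P0-3.9GFPCre* against *FVB/N* with a 95% interval from 0.242 to 1.84 (adjusted p = 0.899 by edgeR).

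Of the members, 5 are textbook targets of p53, the DNA damage factor: *Bax*, *Bbc3*, *Pmaip1*, *Apaf1* and *Bid*. In *Le-Cre* against *FVB/N*, 4 of these 5 had a positive and 1 a negative log2 fold change, from -0.13 to 0.29, with a median of 0.26 beside 0.00 over all genes tested, and 0 were called. With the Y-linked level as a covariate 3 of the 5 were positive and the median was 0.04, and on log2 TPM with limma 3 of 5 were positive and the median was 0.15. In *P0-3.9GFPCre* the range was -0.03 to 0.27 with a median of 0.14 and 4 of 5 positive. There, 4 of 5 were positive with the covariate too, with a median of 0.04, and 4 of 5 with limma on log2 TPM, with a median of 0.18. *Bbc3* gave 3.59, 3.05 and 4.5 CPM in *FVB/N*, 3.17, 5.13 and 4.04 in *P0-3.9GFPCre* and 4.48, 3.39 and 5.52 CPM in *Le-Cre*. *Pmaip1* gave 1.48, 1.25 and 1.56 CPM, 2.14, 1.4 and 1.62 CPM, and 2.6, 1.48 and 1.13 CPM in the same order. Both overlapped between all lines.

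Beyond the members, 44 further apoptosis genes were followed, of which 33 were tested. None was called by edgeR, with 0 of 33 in each of the 3 comparisons, and 5, 2 and 2 had an unadjusted p under 0.05 in *Le-Cre* against *FVB/N*, *P0-3.9GFPCre* against *FVB/N* and *Le-Cre* against *P0-3.9GFPCre*, beside 7.94%, 6.81% and 7.88% of all genes. *Bnip3*, a relative of the BH3-only proteins that drives the removal of mitochondria, came nearest. It gave 158, 147 and 170 CPM in *FVB/N*, 103, 131 and 106 in *P0-3.9GFPCre* and 104, 110 and 106 CPM in *Le-Cre*, so that both transgenic lines lay below *FVB/N* without overlap. The log2 fold change of *Bnip3* was -0.58 ± 0.09 in *Le-Cre* (adjusted p = 0.0592 by edgeR) and -0.48 ± 0.09 in *P0-3.9GFPCre* (adjusted p = 0.39 by edgeR). Over 19 alternative fits the adjusted p in *Le-Cre* ran from 1.1e-06 by DESeq2 to 0.955 with the Y-linked level as a covariate, and the fold stayed between -0.62 and -0.48 log2. In *P0-3.9GFPCre* it ran from 0.00049 without the filter on low counts to 0.968 without *P0-3.9GFPCre* replicate 3. In the 2 fits with these highest adjusted p values, the unadjusted p by edgeR was 0.00273 for *Le-Cre* and 0.00182 for *P0-3.9GFPCre*. The adjusted p was at most 0.05 in 5 of the 19 fits for *Le-Cre* and in 3 of 19 for *P0-3.9GFPCre*, where the fold under 1.5 left *Bnip3* uncalled. Its relative *Bnip3l*, which encodes NIX, stood at 343, 342 and 352 CPM in *FVB/N*, 318, 318 and 313 in *P0-3.9GFPCre* and 305, 315 and 306 CPM in *Le-Cre*, at -0.16 ± 0.05 log2 in *Le-Cre* (adjusted p = 0.424 by edgeR) and -0.13 ± 0.05 log2 in *P0-3.9GFPCre* (adjusted p = 0.662 by edgeR). Both genes share part of their sequence with other annotated genes, 46.6% of the 51-base stretches of *Bnip3* on either strand and 20.6% of those of *Bnip3l*.

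*Tnfrsf10b*, a death receptor, stood at 24.1, 23.7 and 27.4 CPM in *FVB/N* and at 33.5, 32.0 and 27.6 CPM in *Le-Cre*, all higher, at 0.31 ± 0.09 log2 (adjusted p = 0.361 by edgeR). *Vdac1*, a channel of the outer mitochondrial membrane, stood at 149, 152 and 154 CPM in *FVB/N* and 164, 164 and 162 CPM in *P0-3.9GFPCre*, at 0.11 ± 0.05 log2 (adjusted p = 0.722 by edgeR). Between the transgenic lines, *Mtch2*, a mitochondrial partner of BID, had higher CPM in every *Le-Cre* pool at 0.23 ± 0.07 log2 (adjusted p = 0.486 by edgeR). *Acin1*, a chromatin condensation factor, differed by -0.17 ± 0.08 log2 (adjusted p = 0.633 by edgeR), and *Traf2*, an adaptor of TNF receptors, by 0.27 ± 0.13 log2 (adjusted p = 0.67 by edgeR), both with overlapping pools.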

How the data were processed

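RNA-Seq was performed by the authors on polyadenylated RNA of whole newborn lenses. They trimmed the single-end reads (50 cycles) with Trimmomatic 0.36, used GSNAP to align them to GRCm38, and estimated gene expression in RSEM 1.3.0 (versions from the submitters' processing notes). The deposited tables hold expected counts, which are RSEM's estimated reads per gene without normalization, and the deposited TPM values, which RSEM scaled by effective length and library size. The gene annotation is not given in the sources used here. Coordinates came from GENCODE M21.

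Expected counts were rounded, TMM-normalized and tested in R 4.3.3 with edgeR 4.0.16 (filterByExpr, glmQLFit, glmQLFTest, all 9 pools, 1 coefficient per line) with Benjamini-Hochberg adjustment over all tested genes. A call required a fold of at least 1.5 and an adjusted p of at most 0.05. DESeq2 1.42.0 and limma 3.58.1 (log2 of TPM plus 0.5) served as alternatives. The members and lists were chosen with earlier results of these data known. Fold changes are given for the 8 tested members with the smallest p in each comparison and for the 3 other apoptosis genes with the smallest p per comparison. The naming rule also listed 2 further genes, which are not reported here. Lines and replicate numbers came from the sample titles, and for 1 sample the description carried another number. Depth was 20670968 to 28098059 counts per pool, and the counting limit given for 0 counts is 3 counts at a confidence level of 0.95.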

Additional observations from a re-analysis of the deposited data

How the results depend on the processing

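The count of 0 called members held in each comparison under every alternative fit except 1. Many of these fits called 0 or few genes over the whole table, so the member count could hardly change in them. In *Le-Cre* against *FVB/N* the fit with the Y-linked covariate called 0 of 15557 genes, limma 1 and the replicate block 2. Without the filter on low counts, 1 member (*Bmf*, adjusted p = 0.0171 by edgeR) was called in *Le-Cre* against *FVB/N*, and its adjusted p over the 19 alternatives ran from 0.0171 to 0.965. No further apoptosis gene was called under any of them. Of 24 member fold changes recomputed in 457 alternatives, 450 kept their direction and side of the cutoff. Limma on log2 TPM, added after seeing the data, reversed *Apaf1* in *Le-Cre* against *FVB/N* (-0.25) and against *P0-3.9GFPCre* (-0.18), *Birc2* in *Le-Cre* against *FVB/N* (0.031), and *Cflar* (0.037) and *Bnip3l* (0.143) in *P0-3.9GFPCre* against *FVB/N*. The Y-linked covariate reversed *Bax* in *Le-Cre* (-0.063), and summing the copies reversed *Cycs* in *P0-3.9GFPCre* (0.104, also added after seeing the data). Of 171 alternatives for the other apoptosis genes named, likewise added, 170 kept direction and side.

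Counts of members with an unadjusted p under 0.05 were unstable. In *Le-Cre* against *FVB/N* the count fell from 2 to 1 in DESeq2 with and without a prior (*Bmf*) and with the Y-linked covariate (*Diablo*), and leaving out 1 pool gave 1 to 3, with 1 (*Bmf*) without *FVB/N* replicate 2 or without *Le-Cre* replicate 1. In *P0-3.9GFPCre* against *FVB/N* the count of 3 became 0 with the Y-linked covariate and 1 to 3 on leaving out a pool, with 1 without *FVB/N* replicate 1 (*Htra2*) or 3 (*Bcl2*). Between the transgenic lines it was 1 with limma and 1 to 4 on leaving out a pool, with 1 without *Le-Cre* replicate 1 (*Htra2*) or 2 (*Apaf1*). The member median moved by more than the spread of 0.0337 between pools with limma (0.066 in *Le-Cre* and 0.076 in *P0-3.9GFPCre* against *FVB/N*) and with the Y-linked covariate (-0.041 in *P0-3.9GFPCre*). Leaving out a pool gave medians from -0.004 to 0.065 in *Le-Cre* against *FVB/N* and from -0.044 to 0.086 between the transgenic lines. The cause of these shifts was not tested.

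Same-numbered pools deviated together with a mean correlation of 0.03 (-0.104 to 0.12 over 9 pairs). For differently numbered pools the mean was -0.015 (-0.171 to 0.116 over 18 pairs). A correlation over all genes cannot exclude that replicate numbers pair the pools, and replicate 2 had the highest Y-linked level in each line. With the replicate block, 1 member instead of 2 had an unadjusted p under 0.05 in *Le-Cre* against *FVB/N* and 4 instead of 3 (adding *Bmf*) in *P0-3.9GFPCre* against *FVB/N*. No member call changed, while calls over all genes in *Le-Cre* against *FVB/N* went from 10 to 2. These 10 were 49 by DESeq2 without a prior and 0 or 1 without any single *FVB/N* or *Le-Cre* pool, and the 0 calls of the other comparisons became 14 (*P0-3.9GFPCre* against *FVB/N*) and 18 (between the transgenic lines) without *FVB/N* replicate 2.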
